A study of Eucalyptus camaldulensis with 12 samples.

Results

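Eucgr.D01193 and Eucgr.D01195 are neighbouring genes of Eucalyptus whose best Arabidopsis match, by the study's annotation, is CYP71B23, a cytochrome P450 of family 71, subfamily B. They are 2 of the 43180 predicted transcripts counted in leaves of E. camaldulensis (river red gum) seedlings. Both were found by their coordinates on scaffold 4 of the draft genome of E. grandis, 21684730 to 21686496 for Eucgr.D01193 (a span of 1767 bases) and 21704020 to 21705426 for Eucgr.D01195 (1407 bases), with 17.5 kb between them. The names come from the study's list of transcripts that differed between watered and stressed leaves. The pair was taken up because of how its reads were spread over the populations and groups. Its values between populations and between groups are therefore given as descriptions with no test.

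The 12 libraries came from seedlings of 3 populations, Katherine (dry tropics), Mt Isa (semi-arid tropics) and Petford (humid tropics), that were grown in pots for 5 months before the treatment. Each population gave 4 bulks of leaves. C0 and C1 are the same 5 seedlings before the treatment and at its end, watered to field capacity throughout, and S0 and S1 are another 10 seedlings before and after 2 months of water stress at 30% of field capacity. The study compared these groups to find the genes that respond to water stress. Each group thus has 3 libraries, 1 per population, so populations are the replicates of a treatment and the 4 bulks are all there is of a population. For Mt Isa, the source names of C1 and S0 name another group than the titles and the sample group do, and titles and sample group were followed.

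Cytochromes P450 are heme enzymes, most of which add an oxygen atom from O2 to a small molecule, drawing electrons from NADPH through a reductase or, in part, through cytochrome b5. They form one of the largest enzyme families of plants. Family 71 is a large and diverse plant family, often found as runs of similar genes side by side, and its Arabidopsis members include CYP71B15, which acts in the synthesis of the defence compound camalexin. What CYP71B23 itself makes is not stated in the sources used here.

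Values are counts of reads on each predicted transcript, and CPM, the counts as a share of the library total after TMM scaling, brought to the usual common size. Library totals ranged from 1726793 to 6951584 counts, with 9107870 in the 4 Mt Isa libraries, 12693553 in those of Katherine and 17968959 in those of Petford. The labelled tissue was checked with 5 transcripts that match the Rubisco small subunit RBCS1A or the light-harvesting protein LHB1B1. All 5 were among the first 52 of the 43180 transcripts by reads, and Eucgr.J01502 (RBCS1A) ranked 1. Their summed level lay between 7236 and 51699 CPM in the Mt Isa libraries, between 7360 and 64814 in those of Katherine and between 8929 and 104037 in those of Petford. Eucgr.J01502 was called higher in Petford than in Mt Isa (log2 0.99, adjusted p = 0.00101, edgeR's quasi-likelihood test), the same direction as the pair, and the other 4 were not; 3 of the 5 had an unadjusted p under 0.05. None of the 5 was called between Katherine and Mt Isa by edgeR or by DESeq2, and 0 had an unadjusted p under 0.05. Their part in the differences of the pair between populations was not tested.

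No read fell on either gene in any Mt Isa library, while every library of Katherine and Petford had some. Eucgr.D01193 had 134 reads in the 4 Katherine libraries, 631 in the 4 Petford libraries and 0 in the 4 Mt Isa libraries. Eucgr.D01195 had 107, 546 and 0. A count of 0 over the 4 Mt Isa libraries allows a level of up to 0.312 CPM, with a floor of 3 reads over the 4. Against that floor, Eucgr.D01193 was at least 34.4-fold higher in Katherine and at least 123-fold higher in Petford. The same bounds for Eucgr.D01195 were 27.4 and 107. Intervals and floors here cover counting error only, and the 4 libraries of a population hold just 2 sets of seedlings. The floors apply to reads that aligned to the E. grandis genome. Whether reads of these genes from Mt Isa seedlings align as well as those of the other populations was not tested. A bulk does not show how many of its seedlings expressed a gene, and fewer cells that express it cannot be told apart from less RNA per cell.

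The 12 values were as follows. Before the treatment, in C0, Eucgr.D01193 had 36 reads (18.4 CPM) in Katherine, 0 in Mt Isa and 116 (61.3 CPM) in Petford. In S0, which is also before the treatment, it had 37 reads (14.4 CPM), 0 and 316 (67.1 CPM). Petford was above Katherine in both sets of seedlings.

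In C1, at the end of the watered period, Eucgr.D01193 had 60 reads (19.4 CPM) in Katherine, 0 in Mt Isa and 185 (56 CPM) in Petford. In S1, after water stress, it had 1 read (0.205 CPM), 0 and 14 (2.16 CPM). The S1 libraries of Katherine and Petford were both below every C0, S0 and C1 library of these populations.

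Eucgr.D01195 followed the same course. It had 27 reads (13.8 CPM) in Katherine and 99 (52.3 CPM) in Petford in C0, 28 (10.9 CPM) and 259 (55 CPM) in S0, and 50 (16.1 CPM) and 171 (51.7 CPM) in C1. In S1 it had 2 reads (0.41 CPM) in Katherine and 17 (2.62 CPM) in Petford. The Mt Isa libraries again held 0 reads in all 4 groups.

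**Figure D1:**
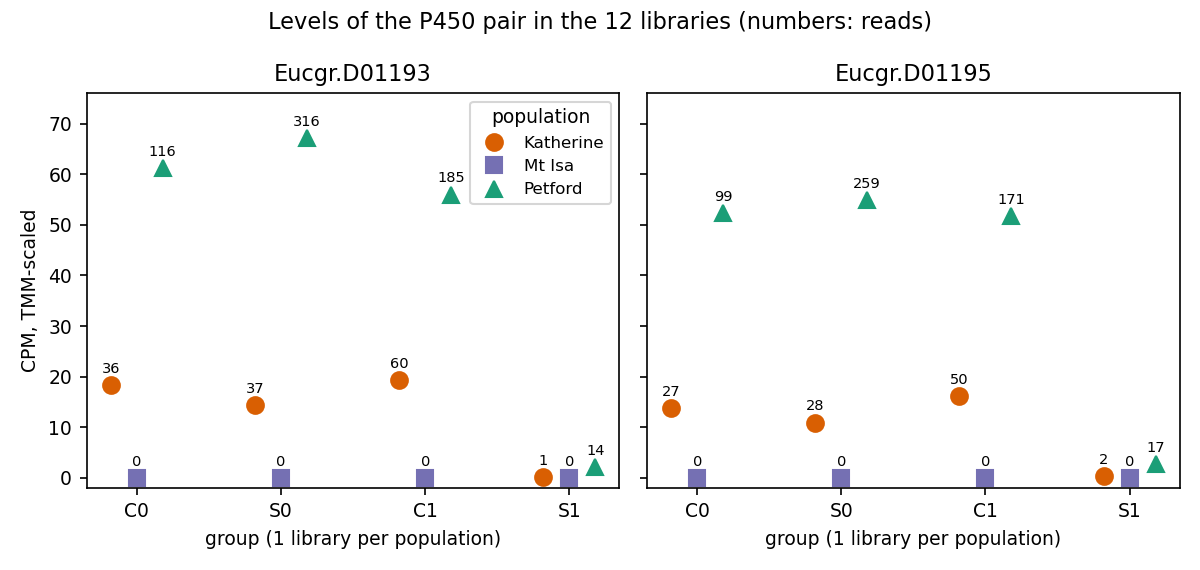
CPM (vertical axis, TMM-scaled) of Eucgr.D01193 (left) and Eucgr.D01195 (right) in the groups C0, S0, C1 and S1; each point is 1 library, coloured by population, with its number of reads above it. Petford stands highest in each group, Mt Isa is at 0 throughout, and S1 is near 0 in all 3 populations.

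Among the populations with reads, Petford was above Katherine in each of the 4 groups. For Eucgr.D01193 the ratio of Petford to Katherine was 3.33 in C0 (95% Clopper-Pearson interval 2.27 to 4.98), 4.66 in S0 (3.31 to 6.74) and 2.89 in C1 (2.15 to 3.93). In S1, where Katherine had 1 read, it was 10.5 with an interval from 1.6 to 444. For Eucgr.D01195 the ratios were 3.78 in C0, 5.04 in S0, 3.2 in C1 and 6.38 in S1, the last with an interval from 1.51 to 56.9. For the reads of both genes together it was 4.82 in S0 (3.73 to 6.34) and 3.03 in C1 (2.44 to 3.79). Whether the ratio differed between groups was not tested. Over the 4 libraries of a population, Eucgr.D01193 averaged 13.1 CPM ± 8.86 (SD, n = 4) in Katherine and 46.6 ± 30 in Petford, and Eucgr.D01195 averaged 10.3 ± 6.95 and 40.4 ± 25.2. The lowest of the 4 was the S1 library in each case, and the medians were 16.4 and 58.6 CPM for Eucgr.D01193 and 12.4 and 52 CPM for Eucgr.D01195.

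A transcript this well covered and yet without a read in a whole population was rare in the table. Of the 8416 transcripts with at least 653 reads in the Katherine and Petford libraries together, 653 being the total of Eucgr.D01195, only these 2 genes had 0 reads in all 4 Mt Isa libraries. The same count was 0 of 7651 for Katherine and 0 of 6784 for Petford. With a minimum of 10 reads in the other libraries, which takes in many transcripts of few reads, 564 of 42263 had none in Mt Isa (1.33%), 231 of 41421 had none in Katherine (0.558%) and 160 of 40127 had none in Petford (0.399%). The pair was chosen with this pattern in view, and the counts place it in the table without testing it. Of all transcripts tested, 0.464% were called different between Katherine and Mt Isa and 0.661% between Petford and Mt Isa by edgeR's quasi-likelihood test at an adjusted p under 0.01.

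Most transcripts around the pair were read in Mt Isa leaves. Within 100 kb of the pair lay 19 other predicted transcripts, of which 17 had reads in all 3 populations and 13 in all 4 Mt Isa libraries. All 10 of those with at least 100 reads over the 12 libraries had reads in all 4 Mt Isa libraries. The nearest transcript before Eucgr.D01193, 28.9 kb away (21654282 to 21655846), held 1993 reads and stood at 53.9 CPM in Katherine, 39 in Mt Isa and 57.6 in Petford over the pooled libraries. The nearest after Eucgr.D01195, 7.31 kb away (21712738 to 21716431), held 424 reads and stood at 11.1, 11.9 and 10.4 CPM. These levels are set by length as well as expression and are compared here only between populations.

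Over all transcripts with at least 10 reads in the Katherine and Petford libraries, 1.33% had no read in Mt Isa. Of the 19, 2 had none. One lies between the members, 64 bases before Eucgr.D01195 (21703768 to 21703955, a span of 188 bases), and had 7 reads in Katherine and 50 in Petford. Its Petford reads were 14 in C0, 22 in S0, 10 in C1 and 4 in S1, and all its 7 Katherine reads were in C1. It was the only 1 of the 19 called higher in Petford than in Mt Isa (adjusted p = 0.00803, edgeR's quasi-likelihood test), where 0.44% of all transcripts tested were called in that direction, and DESeq2 called 0 of the 19. Whether it is a separate gene or a stretch of Eucgr.D01195 is not known here. The other is a transcript of 65 bases (21715309 to 21715373) with 32 reads in all. None of the 19 was called different between Katherine and Mt Isa by edgeR or by DESeq2, where edgeR called 0.464% of all transcripts tested. In edgeR 3 of the 19 had an unadjusted p under 0.05, and so had 4259 of all 43146 tested.

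**Figure D2:**
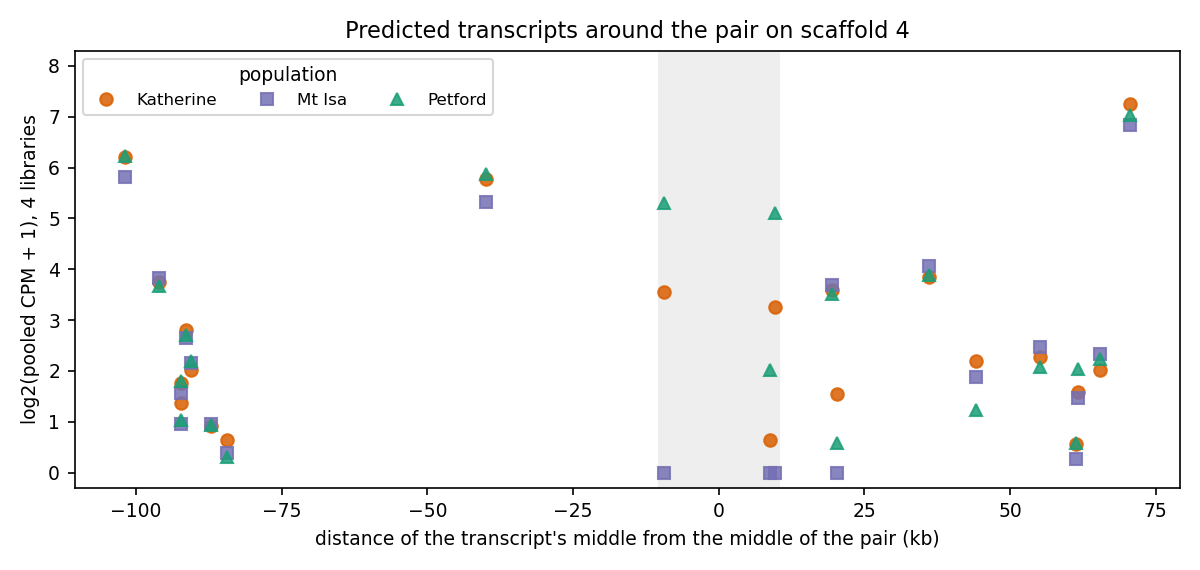
Pooled level in each population, as log2(CPM + 1) over its 4 libraries (vertical axis), of the pair and the 19 other predicted transcripts within 100 kb, against the distance in kb of each transcript's middle from the middle of the pair; the grey band spans the pair. The 3 populations lie close together at the well-covered transcripts outside the band, while both members are at 0 in Mt Isa.

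After water stress both genes stood close to 0 in the populations that had reads of them before. In Petford, Eucgr.D01193 was 31.1-fold lower in S1 than in S0 (interval 18.3 to 57.6) and Eucgr.D01195 was 21-fold lower (12.9 to 36.6). In Katherine the ratios were 70.2 (11.8 to 2850) and 26.6 (6.7 to 230), with 1 and 2 reads left in S1. The group means of Eucgr.D01193 were 27.1 CPM ± 35.3 (SD, n = 3) in S0 and 0.787 ± 1.19 in S1, and those of Eucgr.D01195 were 22 ± 29.1 and 1.01 ± 1.41. The spread is that between the populations, and it exceeds the mean in each of these groups.

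Over the 3 populations the fitted change from S0 to S1 was -4.89 on the log2 scale for Eucgr.D01193 (SE 1.2) and -4.28 for Eucgr.D01195 (SE 1.15). The SEs include the differences between populations, since the fit had no population term. These changes are descriptions, since the S1 libraries entered the contrast by which the study listed the genes. Of all 40244 transcripts tested, 10.3% were called lower in S1. The size of the fitted change depended on the Petford libraries. For Eucgr.D01193 it was -3.00 without the Petford library of S0 and -7.42 without that of S1, and for Eucgr.D01195 it was -2.30 and -6.31. Without both Mt Isa libraries the changes were -5.05 and -4.42.

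The level of the leaf transcripts moved with this change. All 5 photosynthesis transcripts were called lower in S1 than in S0, with a median log2 change of -4.81, and their summed level ran from 43295 to 104037 CPM in S0 and from 7236 to 8929 in S1. Their part in the result was not tested. From C0 to C1 all 5 were called lower too, with a median of -1.76, and their sum ran from 51699 to 63378 CPM in C0 and from 15773 to 24695 in C1, a period over which the values of the pair are given next.

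In the watered seedlings the levels before and after were close. The fitted log2 change from C0 to C1 was -0.01 for Eucgr.D01193 (SE 1.06) and 0.12 for Eucgr.D01195 (SE 1.04), where 6.25% of all transcripts tested were called in either direction. It is likewise a description, and its SEs include the differences between populations too. Within a population the intervals, which cover counting error only, all spanned 1. In Petford, Eucgr.D01193 was 1.09-fold higher in C0 than in C1 (interval 0.86 to 1.39) and Eucgr.D01195 1.01-fold (0.781 to 1.3). By library total alone, without TMM scaling, C1 was the higher in Petford, at 61.9 against 61 CPM and 57.2 against 52. In Katherine the genes were 1.05-fold (0.684 to 1.64) and 1.17-fold (0.718 to 1.94) higher in C1.

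Between the bulks sampled before any treatment the fitted differences were small. The libraries of these bulks did not enter the study's listing, but the pair was taken up with their values in view. The differences are therefore descriptions too. From C0 to S0 the log2 difference was 0.19 for Eucgr.D01193 (SE 1.04) and 0.17 for Eucgr.D01195 (SE 1.04). By edgeR's quasi-likelihood test 0.191% of all transcripts tested were called. These SEs include the differences between populations. With population as a replicate block the log2 differences were -0.09 (SE 0.28) and -0.12 (SE 0.30). Within Petford the S0 level was 1.09-fold (0.882 to 1.37) and 1.05-fold (0.831 to 1.34) that of C0. By library total alone, without TMM scaling, Petford's S0 level was the lower, at 51.6 against 61 CPM and 42.3 against 52. Within Katherine the C0 level was 1.28-fold (0.786 to 2.08) and 1.27-fold (0.719 to 2.23) that of S0. These 10 and 5 seedlings are different plants, so the order of the populations at this stage, Petford over Katherine over Mt Isa, was read in separate plants.

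Between watered and stressed leaves at the end, the contrast by which the genes were listed, the values are given without a test. Eucgr.D01193 was 26-fold lower in S1 than in C1 in Petford (15.1 to 48.4) and 94.5-fold lower in Katherine (16.3 to 3790). Eucgr.D01195 was 19.8-fold (12 to 34.7) and 39.4-fold (10.3 to 334) lower. The group means of C1 were 25.1 CPM ± 28.4 (SD, n = 3) and 22.6 ± 26.5. The fitted log2 changes over the 3 populations were -4.73 and -4.27, in a contrast where 22.3% of all transcripts tested were called. It shares its S1 libraries with the comparison of S0 and S1.

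By level, then, each gene ran Petford over Katherine over Mt Isa in C0, S0 and C1. In S1 Petford was over Katherine, but Katherine, at 0.205 and 0.41 CPM, lay under the 1.15 CPM that 0 reads in the Mt Isa library allows, so these 2 could not be ordered. Within Katherine and Petford, S1 stood below C0, S0 and C1. Among those 3, the levels of S0 and C1, which are different plants at different times, were the farthest apart in Katherine, where C1 was 1.35-fold (0.879 to 2.09) over S0 for Eucgr.D01193 and 1.48-fold (0.915 to 2.45) for Eucgr.D01195. For both genes together that ratio was 1.4, with an interval from 1.02 to 1.94 that covers counting error only. It sets a single bulk against another, chosen as the farthest apart, and was not tested. In Petford it went the other way, with S0 over C1 by 1.2-fold (0.996 to 1.44) and 1.06-fold (0.872 to 1.3). This direction depended on the TMM scaling. By library total alone, C1 was over S0 in Petford too. The levels were then 61.9 against 51.6 CPM for Eucgr.D01193 and 57.2 against 42.3 for Eucgr.D01195. In Mt Isa the change with water stress could not be measured, because no library of it held a read.

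The reads of the members stood in about the same ratio in each library. Of the 1418 reads on the pair, 53.9% were on Eucgr.D01193 (95% Clopper-Pearson interval 51.3 to 56.6). In the 7 libraries with at least 10 reads on the pair, this share ran from 45.2% (27.3 to 64, Petford in S1, 31 reads) to 57.1% (44 to 69.5, Katherine in C0, 63 reads), and the intervals of all 7 overlapped. The share was 55% (50.8 to 59.1) in the deepest of them, the S0 library of Petford with 575 reads on the pair. Across the 12 libraries the log2(CPM + 1) values of the members had a Pearson r of 0.998, and across the 6 libraries of Katherine and Petford in C0, S0 and C1 alone it was again 0.998. These points share libraries and seedlings. Since both genes match the same Arabidopsis gene and their sequences were not compared here, reads of similar copies may have been placed on either, and the split between them is uncertain.

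**Figure D3:**
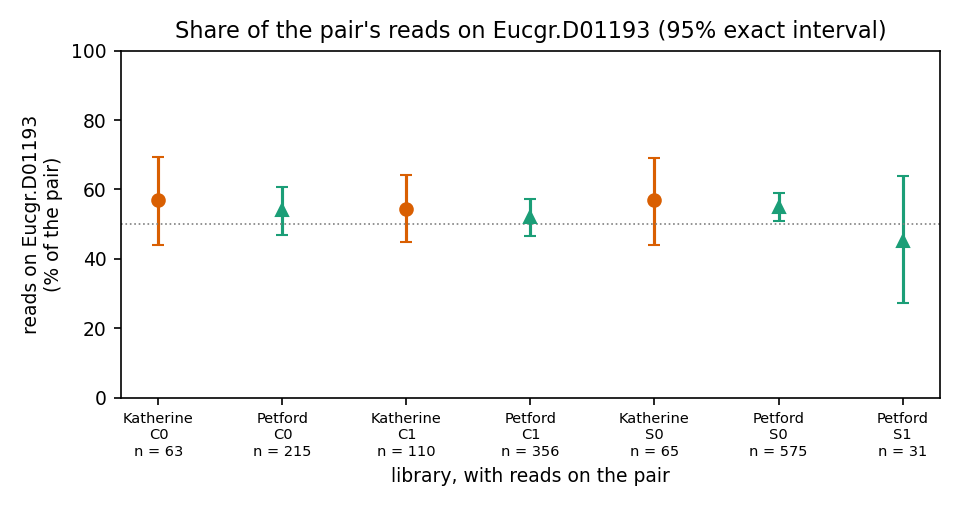
Share of the pair's reads that lay on Eucgr.D01193 (vertical axis, percent) in the 7 libraries with at least 10 reads on the pair; bars are 95% exact intervals and n is the number of reads on both genes. The shares lie between 45.2% and 57.1%, with overlapping intervals, in both populations and in all groups shown.

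The transcripts whose course over the 12 libraries was most like that of the pair had few reads. The 5 with the highest mean Pearson r with the members, of 43144 compared, had r from 0.917 to 0.984, and none of them lies on scaffold 4. The first, on scaffold 7 (6578712 to 6579042), had 21 reads in all and 0 in Mt Isa. The next, on scaffold 11 (9746815 to 9747724), had 63 reads and 0 in Mt Isa, and the third, on scaffold 7 (6481530 to 6482483), had 66 reads and 1 in Mt Isa. The fourth, on scaffold 6 (50442469 to 50444209), had 220 reads, 35 of them in Mt Isa. The fifth was Eucgr.E00684 on scaffold 5 (6923561 to 6923664), with 72 reads and 2 in Mt Isa, whose Arabidopsis match RPP8 is a disease resistance protein. By Spearman's rho 2 of the 5 remained among the first 5.

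The pair was set beside 44 other P450 genes that could be named here from the study's tables. They are not all that the study names, since Eucgr.L03100 and Eucgr.F00172, for example, are not among them. Of these, 32 came from the study's list for C1 against S1, which was selected on that contrast, and 12 from its table of SNPs. All 44 had reads in Mt Isa, 25 or more. Reads there were common, since 1.33% of all transcripts with at least 10 reads in the Katherine and Petford libraries had none. The lowest pooled level of the 3 populations was in Mt Isa for 20 of the 44, a count not made over all transcripts. By edgeR's quasi-likelihood test 1 was called between Katherine and Mt Isa, Eucgr.C01776 (CYP71B11), which was lower in Katherine (log2 -1.59, SE 0.28, adjusted p = 0.00131), as were 0.204% of all transcripts tested, while 0.26% were higher. In Petford 2 of the 44 were called higher than in Mt Isa, where 0.44% of all transcripts tested were called in that direction. They were Eucgr.D01997 (CYP706A6, log2 1.29, SE 0.19) and Eucgr.J01844 (log2 0.93, SE 0.19). The latter is the match of cinnamate hydroxylase, an early enzyme of the phenylpropanoid pathway. None of the 44 was called higher in both Katherine and Petford than in Mt Isa. The share of all transcripts called in both was not counted, but cannot exceed the 0.26% called higher in Katherine. A count of 0 among 44 therefore does not set the list apart. Between Katherine and Petford, Eucgr.A01641 (CYP76C4) was higher in Katherine (log2 1.07, SE 0.20) and Eucgr.D00200 (CYP706A4) lower (-0.89, SE 0.17), where 0.447% of all transcripts tested were called.

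**Figure D4:**
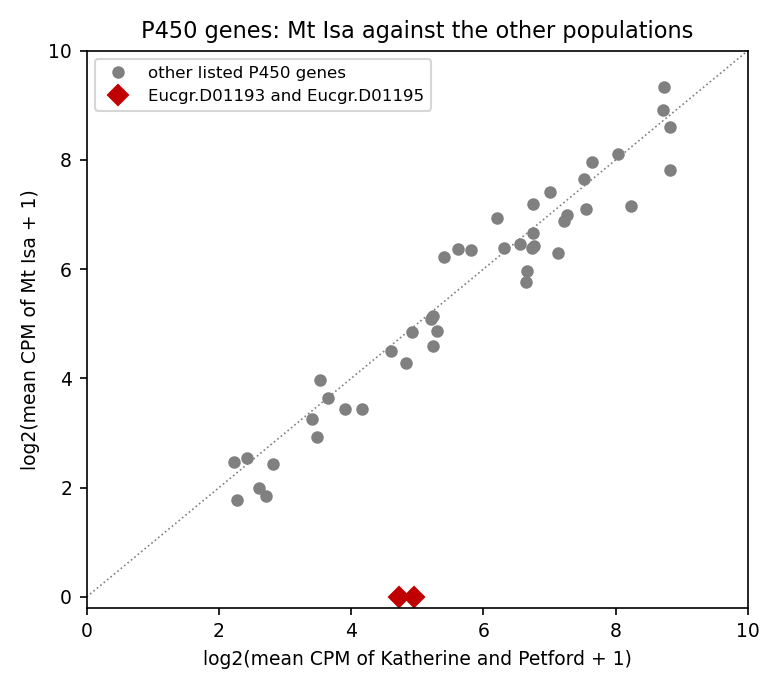
Mean level of each P450 gene over the 4 Mt Isa libraries (vertical axis) against its mean over Katherine and Petford (horizontal axis), both as log2(CPM + 1), for the 44 other listed genes (grey) and the pair (red); the dotted line marks equal levels. The 44 lie along the line, and the pair lies at 0 on the Mt Isa axis.

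Over the treatment most listed P450 genes fell with water stress. From S0 to S1, 26 of the 44 were called lower and 6 higher, with a median log2 change of -3.07, where over all transcripts 10.3% were called lower, 8.85% higher and the median was 0.02. By source, 25 of the 32 from the C1 against S1 list were lower and 3 higher, and S1 libraries helped to select them; of the 12 from the SNP table, 1 was lower and 3 higher, with a median of -0.27. The largest falls were in Eucgr.G02702 (CYP94C1), Eucgr.D00201 (CYP706A6, log2 -6.49, SE 0.43) and Eucgr.B01524 (CYP94B3, -6.41, SE 0.47). Eucgr.G02702 had 31 reads in S0 and 0 in S1 and was thus at least 16-fold lower, taking 3 reads in S1 as the floor. In Arabidopsis, CYP94B3 and CYP94C1 oxidise the hormone jasmonoyl-isoleucine, a step in its removal. The largest rises were in Eucgr.B03249 (CYP71B36, log2 3.36, SE 0.66), Eucgr.D01955 (CYP76C7, 2.20, SE 0.47) and Eucgr.D01956 (CYP76C4, 2.07, SE 0.46). The changes of the pair, -4.89 and -4.28, lay within the range of the genes that fell.

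In the watered seedlings the list moved in both directions. From C0 to C1, 11 of the 43 tested were called higher and 7 lower, with a median of 0.23, where over all transcripts 2.35% were called higher and 3.9% lower. The largest rises were in Eucgr.K02128 (log2 2.92, SE 0.32), whose match CYP82G1 makes a volatile homoterpene in Arabidopsis, Eucgr.C02162 (CYP716A1, 2.51, SE 0.49) and Eucgr.H04232 (CYP87A2, 2.38, SE 0.44). The largest falls were in Eucgr.I01215 (CYP82C4, -3.09, SE 0.62), Eucgr.D00200 (-2.03, SE 0.30) and Eucgr.D00209 (-1.94). The 18 calls in this comparison fell to 8 without the Katherine library of C0, 11 without that of Mt Isa and 10 without that of Petford, and to 5 without both Mt Isa libraries. Between C0 and S0 none of the 44 was called by edgeR's quasi-likelihood test or by DESeq2, where edgeR called 0.191% of all transcripts tested. In edgeR 7 of the 44 had an unadjusted p under 0.05, and so had 2253 of all 36048 tested.

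**Figure D5:**
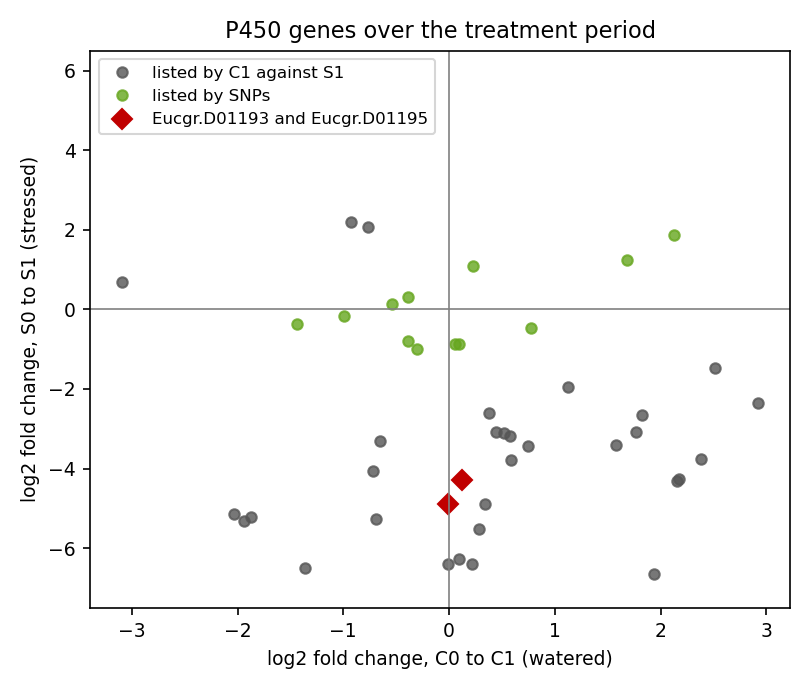
Log2 fold change from S0 to S1 (vertical axis) against that from C0 to C1 (horizontal axis) for the listed P450 genes with both values, by the table that named them, and for the pair (red). The pair lies at about 0 on the watered axis and at -4.89 and -4.28 on the stressed axis.

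Between C1 and S1, on which most of the list was selected, 30 of the 44 were called lower and 7 higher, while of the 12 named by SNPs, 2 were lower and 3 higher. Over all transcripts 12.5% were called lower and 9.81% higher. The largest falls were in Eucgr.G02702, with 88 reads in C1 and 0 in S1 (at least 47.9-fold), Eucgr.H04866 (CYP96A10, log2 -7.16) and Eucgr.H04854 (CYP96A9), with 202 reads in C1 and 2 in S1 (ratio 165, interval 45.1 to 1370). The largest rises were in Eucgr.B03249, with 1 read in C1 and 189 in S1 (ratio 116, interval 20.5 to 4600), Eucgr.I01215 (log2 4.34) and Eucgr.D01956 (3.83).

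The other 5 genes of family 71 on the list were read in all 3 populations. Eucgr.C01775 and Eucgr.C01776, both matching CYP71B11, had 2252 and 5832 reads in Mt Isa. They rose from C0 to C1 (log2 1.82, SE 0.27, and 1.77, SE 0.37) and fell from S0 to S1 (-2.65, SE 0.52, and -3.08, SE 0.68). Eucgr.B00182 (CYP71A26) fell from S0 to S1 as well (-3.78, SE 0.80) and had 42 reads in Mt Isa. Of the matches of CYP71B36, Eucgr.B03249 rose from S0 to S1, as given above, and Eucgr.B03254 had a log2 change of -3.11 that did not pass (adjusted p = 0.0575, edgeR's quasi-likelihood test). They had 25 and 49 reads in Mt Isa.

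Of the electron donors of P450 enzymes, 2 cytochrome b5 genes were among the transcripts named here. Eucgr.F00125 (CB5-D), from the list for C1 against S1, was also low in Mt Isa, with 591 reads in Katherine, 66 in Mt Isa and 586 in Petford. It was called higher in Katherine (log2 2.21, SE 0.35, adjusted p = 0.000331) and in Petford (2.33, SE 0.35, adjusted p = 0.00014) than in Mt Isa by edgeR's quasi-likelihood test. Its course over the groups was another than that of the pair, since it rose from C0 to C1 (5.53, SE 0.70), with 553, 53 and 518 reads in Katherine, Mt Isa and Petford in C1, and changed by 0.93 from S0 to S1 (SE 0.61, adjusted p = 0.292). Eucgr.A01428 (CB5-E) rose from S0 to S1 (1.65, SE 0.18), and its differences between Mt Isa and the other populations did not pass (adjusted p = 0.913 and 0.416).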

How the data were processed

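Leaf mRNA was sequenced in 12 libraries. The authors mapped reads to the E. grandis draft genome with TopHat and Bowtie, predicted transcripts with Cufflinks on the pooled alignments, and counted reads per transcript with bedtools; the sources used here give no versions, genome release or use of strand. Values as deposited are raw counts, whole numbers with no normalization. They hold only reads that aligned to E. grandis. Of 43425 entries, 245 repeats were dropped. Names came from the study's tables, by coordinates (1714 transcripts) or SNP position (693). They cover only a part of the transcripts that the study listed. No genome was used here, so no sequence or copy identity was examined.

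Counts were analysed with edgeR 4.0.16 in R 4.3.3 (TMM; a minimum of 10 reads over all libraries of a fit; quasi-likelihood F test, 2-sided; Benjamini-Hochberg over all transcripts at 0.01). Treatment groups were fitted with the 6 libraries compared, and populations with all 12 and group as a term. Alternatives were DESeq2 1.42.0 alone and as size factors, no filter, population as a block, all 12 libraries, libraries left out, and other pseudocounts or ranks for likeness. The procedure was also run on simulated data, with no population differences in the group comparisons and no repeated seedlings. Those runs cannot show how the fits behave where both are present. SEs are the log2 change over the square root of F and can be too small at few reads. CPM used TMM over the 12 libraries, and likeness used log2(CPM + 1).

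The seedlings of C0 were sampled again in C1, and those of S0 in S1, so population pairs these libraries. With group means removed, same-population libraries correlated across transcripts at 0.217 to 0.238 (C0, C1) and 0.189 to 0.295 (S0, S1). For C0 and S0 (0.0796 to 0.122) and C1 and S1 (0.0521 to 0.142) the seedlings differ and only the population is shared.

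Genes were named by rule: the pair, the 5 transcripts most like it, the neighbours within 100 kb, family 71, the 3 P450 genes with the largest called change each way per comparison, cytochrome b5 and the leaf transcripts. Listed P450 genes were those of the named transcripts with P450 or CYP in their definition (E value at most 1e-05). The members and lists were chosen with earlier results of these data known, and for the pair itself no contrast is given as a test. C1 and S1 libraries entered the contrast that listed it, and its C0 and S0 values were in view. P-values between groups measure the spread between populations, each a bulk. Those between populations measure the spread among the libraries of a population, after the group term. These libraries repeat the same seedlings before and at the end, so they are not independent and such p-values can be too small.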

Additional observations from a re-analysis of the deposited data

How the results depend on the processing

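From C0 to S0, 24 alternatives were run for the pair, and 11 turned the sign of a difference near 0. It turned for Eucgr.D01193 with DESeq2 (-0.04) and with population as a replicate block (-0.09), and for Eucgr.D01195 with DESeq2 (-0.07), the block (-0.12) and without both Mt Isa libraries (-0.03), and with single libraries left out it ran from -1.72 to 1.78 and from -1.83 to 1.91. The change from S0 to S1 kept its sign in all 24 alternatives. With single libraries left out it ran from -7.42 to -3 and from -6.31 to -2.3. With the block it was -5.20 and -4.53. From C0 to C1 the sign turned for Eucgr.D01193 without a filter (0.01) and with all 12 libraries (0.02), and for Eucgr.D01195 with DESeq2 (-0.01) and without Mt Isa (-0.01), with ranges of -1.31 to 1.61 and -1.3 to 1.9. From C1 to S1 it kept its sign in all 24.

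Transcripts called from C0 to C1 numbered 2263, against 4264 with the block, 472 without Mt Isa and 1124 to 2410 with single libraries left out. From S0 to S1 they numbered 7722, against 11872 with the block and 5498 to 6691. From C0 to S0 they numbered 69, against 138 with DESeq2, 207 with the block, 104 with all 12 libraries and 28 to 148. From C1 to S1 they numbered 9020, against 5746 without Mt Isa and 6489 to 7995. With the pre-treatment libraries alone, 78 were called between Katherine and Mt Isa in place of 200, 74 between Petford and Mt Isa in place of 285 (181 with DESeq2), and 94 between Katherine and Petford in place of 193. The cause of these moves was not tested; leaving out libraries also leaves fewer to fit. For the pair no call is given under any setting. The counts of transcripts without a read under the lower minimum (564, 231 and 160) and the 2 of the most similar transcripts shared with Spearman's rho stand in the report.

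With 3 bulks per group and library totals from 1726793 counts, 0 reads in a single Mt Isa library allows up to 0.965 to 1.71 CPM.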
